A study of Mus musculus with 6 samples.

Results

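The genes described here make pigment or recycle the visual chromophore: Dct, Tyrp1, Tyr and Mlana of the melanosome, and Rpe65, Rlbp1 and Rgr of the retinoid cycle. They were taken as every probe whose platform annotation names one of these 7 genes. That gave 11 of the 25697 probes on the array, for 7 of 16593 named genes: 3 probes for Tyrp1, 3 for Rgr and 1 for each of the others.

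The study profiled the lens of mice homozygous for Fgf9 Y162C, a substitution of a single amino acid in the secreted fibroblast growth factor 9 that the study's title calls neomorphic, and of wild-type mice. All 6 animals were C57BL/6J, a black-coated strain, and 18 weeks old. The 3 homozygotes are labelled as 2 females and 1 male, and the 3 wild types as 1 female and 2 males. Total RNA of 1 mouse was hybridised to each Illumina BeadChip, on which each probe is read as a bead intensity.

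Melanin is made in melanosomes of 2 cell types of the eye, the melanocytes of the iris, ciliary body and choroid, and the pigmented epithelia behind the retina, on the ciliary body and on the iris. Tyrosinase (Tyr) carries out the rate-limiting oxidation of tyrosine, and its relatives dopachrome tautomerase (Dct) and tyrosinase-related protein 1 (Tyrp1) act on later intermediates. In the retinoid cycle the pigment epithelium turns all-trans retinoid released by photoreceptors back into 11-cis retinal, with the isomerase RPE65 at its centre. The lens itself is an unpigmented epithelium with its fibre cells, and these genes are known as markers of the tissues around it.

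In pigment cells the factor MITF binds the M-box, an element with the core TCATGTG, in the promoters of the tyrosinase family. Windows of 300 bases, from 250 before to 50 after each gene's start, were available from RefSeq (GRCm38.p6) for 6 of the 7 genes and not for Mlana. The 3 tyrosinase family windows are shown because their genes share this element, which is in capitals and was searched on both strands.
Dct: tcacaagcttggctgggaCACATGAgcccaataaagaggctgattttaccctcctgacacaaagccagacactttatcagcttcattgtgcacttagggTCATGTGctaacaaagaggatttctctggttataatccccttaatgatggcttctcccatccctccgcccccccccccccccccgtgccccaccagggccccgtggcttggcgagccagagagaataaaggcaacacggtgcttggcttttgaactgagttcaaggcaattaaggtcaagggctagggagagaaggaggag
Tyrp1: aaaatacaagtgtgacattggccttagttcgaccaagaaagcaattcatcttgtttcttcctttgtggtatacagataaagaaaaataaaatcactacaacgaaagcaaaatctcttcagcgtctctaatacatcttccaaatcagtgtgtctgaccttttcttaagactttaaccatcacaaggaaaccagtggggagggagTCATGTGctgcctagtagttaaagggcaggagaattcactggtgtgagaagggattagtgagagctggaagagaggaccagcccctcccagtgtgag
Tyr: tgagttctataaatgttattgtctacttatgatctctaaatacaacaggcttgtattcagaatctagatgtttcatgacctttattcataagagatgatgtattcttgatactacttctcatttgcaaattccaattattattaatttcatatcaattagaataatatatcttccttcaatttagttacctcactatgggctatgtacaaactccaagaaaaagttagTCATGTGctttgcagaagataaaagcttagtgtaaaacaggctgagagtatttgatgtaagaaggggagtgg
They lie at chr14:118052197-118052496 on the minus strand (Dct), chr4:80833963-80834262 on the plus strand (Tyrp1) and chr7:87493463-87493762 on the minus strand (Tyr). Dct held 2 matches, 1 in each orientation, which began 232 and 151 bases before the start. Tyrp1 held 1 match 47 bases before the start and Tyr 1 match 22 bases before it. Of all 32851 promoter windows, 3.77% hold this core on either strand, and the windows of Rpe65, Rlbp1 and Rgr do not. The shorter form CATGTG, which every TCATGTG contains, was present in all 6 windows and in 14.2% of all windows.

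OTX2 and CRX, homeodomain factors of the pigment epithelium and of photoreceptors, recognise the letters TAATCC, shown in capitals on either strand in the windows of 2 retinoid cycle genes.
Rpe65: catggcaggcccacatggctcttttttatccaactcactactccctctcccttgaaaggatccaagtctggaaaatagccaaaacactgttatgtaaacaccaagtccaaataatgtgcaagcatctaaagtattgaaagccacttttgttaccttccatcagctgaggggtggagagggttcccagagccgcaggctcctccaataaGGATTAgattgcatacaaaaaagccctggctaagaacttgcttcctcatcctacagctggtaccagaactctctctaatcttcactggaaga
Rgr: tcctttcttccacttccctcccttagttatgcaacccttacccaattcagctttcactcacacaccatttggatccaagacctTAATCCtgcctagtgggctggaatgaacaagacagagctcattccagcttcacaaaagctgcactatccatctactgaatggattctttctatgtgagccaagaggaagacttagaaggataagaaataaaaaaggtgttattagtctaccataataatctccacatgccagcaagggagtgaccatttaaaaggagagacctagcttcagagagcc
These windows lie at chr3:159598931-159599230 on the plus strand (Rpe65) and chr14:37048965-37049264 on the minus strand (Rgr). The Rpe65 match began 42 bases before the start and the Rgr match 167 before it. Dct and Tyrp1 also held TAATCC, so 4 of the 6 windows had it, against 7.06% of all windows. A match describes the letters in the window and not binding, which was not measured.

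**Figure D1:**
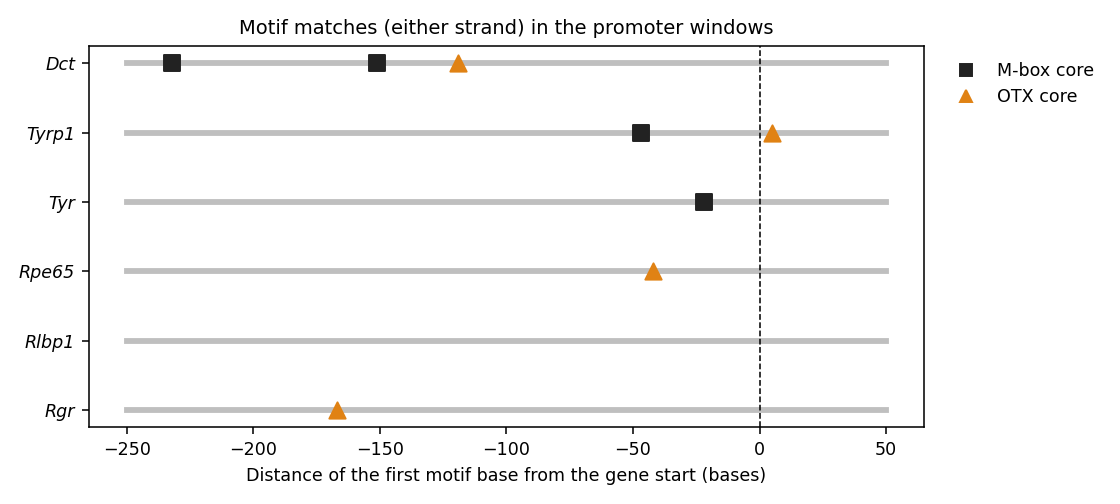
Positions of the M-box core (squares) and the OTX core (triangles), on either strand, in the promoter windows of 6 genes, with distance from the gene start in bases on the x axis. Dct, Tyrp1 and Tyr hold the M-box core, and Dct, Tyrp1, Rpe65 and Rgr hold the OTX core.

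A probe counts as above background on an array when its detection p-value, its rank among negative control beads, is under 0.05. By that measure the homozygous arrays detected 7816, 8396 and 8141 probes and the wild-type arrays 8713, 9671 and 9214. Mean deposited signal over all probes was 164.8, 165.7 and 161.6 on the homozygous arrays and 194, 200.4 and 191 on the wild-type arrays. Raw signals below are therefore from arrays of unlike brightness. Fgf9 itself was above background on 0 of the 6 arrays (detection p-value 0.406 or more), and its probe does not check a substitution. Of 14 lens fibre and epithelium genes on the array, 11 were tested, among them the crystallins, Mip and Bfsp2. Pax6 and Gja3 were above background on 0 arrays. A first principal component with 43.2% of the variance set wild type replicate 2 apart. The label of wild type replicate 3 says male, but the X-inactivation transcript Xist had signals of 149.7 and 128.3 on its 2 probes, above background, while Y-linked Eif2s3y had 75.7 (detection p-value 0.927). Results are given with and without wild type replicates 2 and 3.

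On the homozygous arrays 0, 2 and 0 of the 7 genes were above background, against 5, 6 and 5 on the wild-type arrays. Dct and Rgr were the genes seen in homozygous replicate 2. Tyr was above background on no array. All of these signals were dim: outside Rgr the highest was 242.8, where the lowest detected signal of an array was 90.21 to 99.11. In lens RNA, fewer cells of a type and less RNA per cell cannot be told apart.

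**Figure D2:**
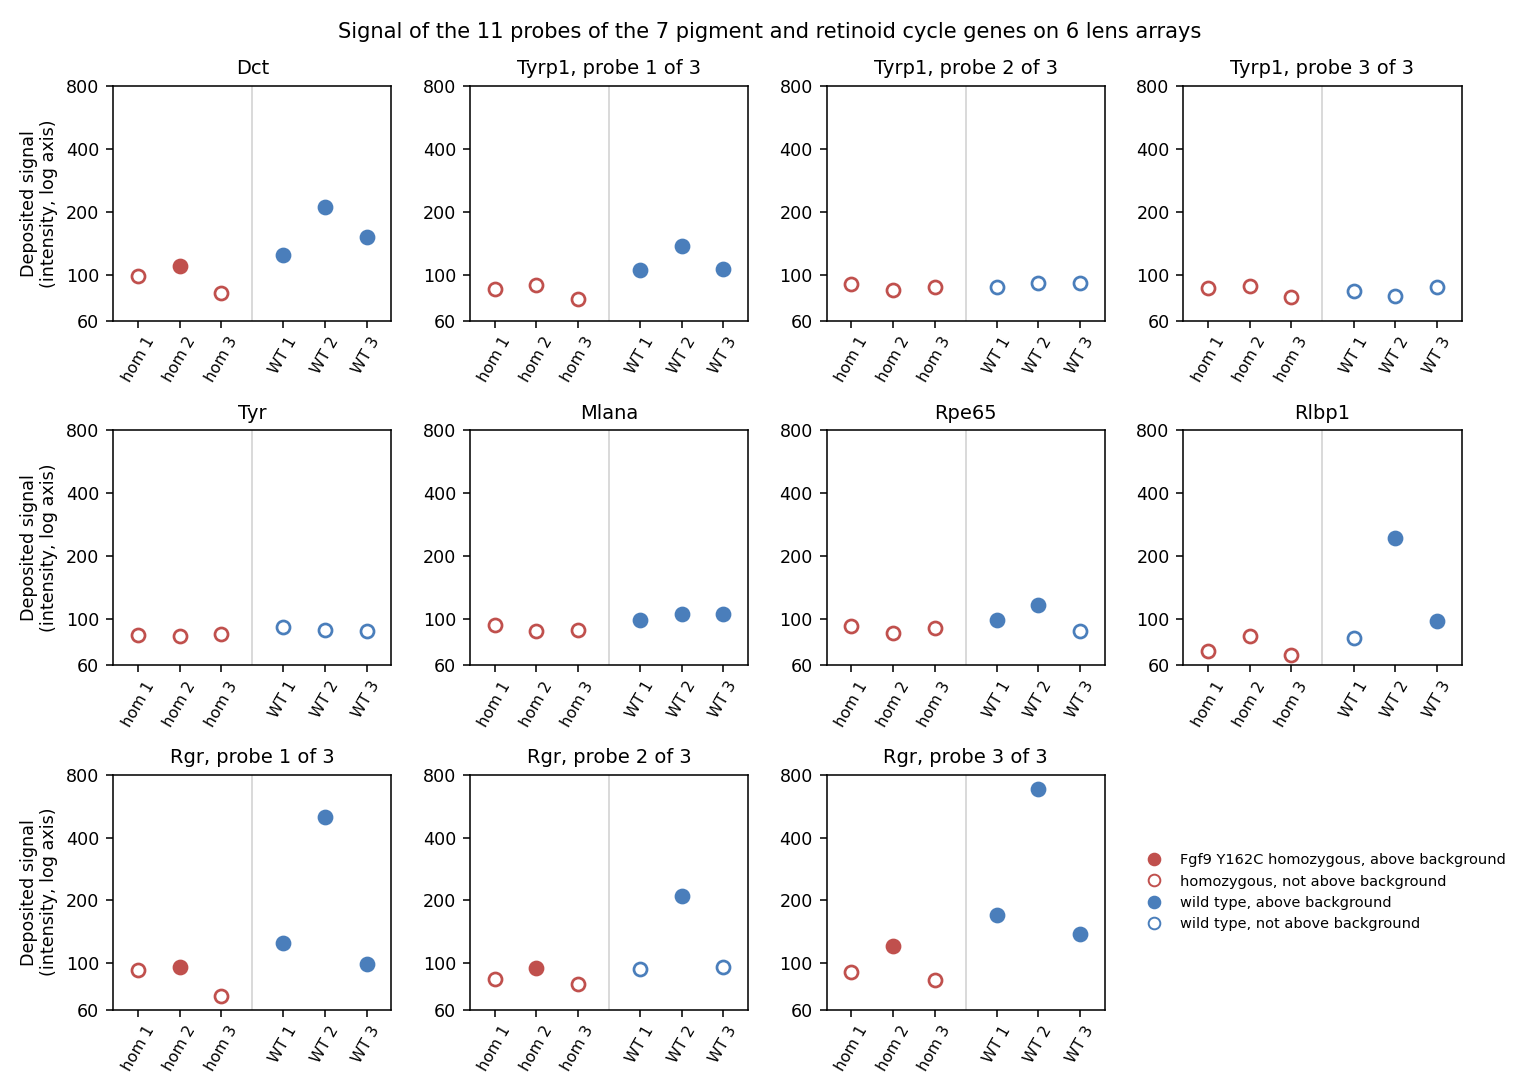
Deposited signal (intensity, log axis) of the 11 probes on the 3 homozygous (left) and 3 wild-type (right) arrays, with filled points above background (detection p-value under 0.05). Rgr, Rlbp1, Dct, Rpe65, Mlana and the detected Tyrp1 probe are highest on wild type replicate 2, by the widest margins for Rgr and Rlbp1. Tyr and 2 of the 3 Tyrp1 probes are above background nowhere.

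Dct catalyses the tautomerisation of dopachrome and was above background on 4 of the 6 arrays, the most of any melanin gene. Its signal was 98.15, 109.5 and 81.31 in the homozygotes, with detection p-values of 0.0652, 0 and 0.385, and 124.4, 211 and 151.4 in the wild type, with a detection p-value of 0 on each array. All 3 homozygous signals lay below all 3 wild-type signals, and the detected arrays were 1 homozygous and 3 wild-type ones. After background correction and quantile normalization its log2 signal was 4.97 ± 0.58 in the homozygotes and 6.23 ± 0.53 in the wild type (SD, n = 3 each). The log2 fold change, homozygous minus wild type, was -1.26 (SE 0.31), a 2.39-fold lower level. It did not pass over all tested probes (limma adjusted p = 0.171). By unadjusted p-value Dct ranked 90 of 8618 tested probes. It passed without wild type replicate 1 (limma adjusted p = 0.0332) and in none of the other fits that left out 1 array.

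Tyrp1, the oxidase that stabilises tyrosinase and completes eumelanin synthesis in the mouse, was seen by 1 of its 3 probes. That probe, ILMN_1228521, read 85.53, 89.02 and 76.47 in the homozygotes (detection p-values 0.589, 0.0915 and 0.704) and 104.7, 137.2 and 106.6 in the wild type (0.01, 0 and 0.00501). It was above background on each wild-type array and on 0 homozygous arrays, and the groups did not overlap. Set against the detection limit, Tyrp1 was at least 1.37-fold lower in the homozygotes, with measured log2 means of 4.48 in the homozygotes and 5.30 in the wild type (limma adjusted p = 0.174). The other 2 Tyrp1 probes read 78.06 to 89.79 in the homozygotes and 79.12 to 91.58 in the wild type, above background on 0 of 6 arrays, and their groups overlapped. The probes of Tyrp1 therefore disagree, and where each lies on the transcript was not analysed here.

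Mlana, a melanosome membrane protein that assists the maturation of the fibrillar protein Pmel, was close to the detection limit throughout. Its signals were 93.33, 87.85 and 88.89 in the homozygotes and 98.48, 105.6 and 105.3 in the wild type. The 3 wild-type arrays detected it and 0 homozygous arrays did, and the groups did not overlap. Its bound was at least 1.07-fold lower in the homozygotes (log2 means 4.68 in homozygotes and 4.95 in wild type, limma adjusted p = 0.631). When arrays were scaled by their medians instead, its log2 fold change was -0.01.

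Tyr read 83.78, 83.16 and 84.33 in the homozygotes and 91.79, 89.02 and 88.07 in the wild type, with detection p-values of 0.188 or more. The rate-limiting enzyme of melanin synthesis was therefore not above background in either group, and no fold is given. Its raw signals did not overlap, but its normalized values did (4.47 ± 0.11 in the homozygotes and 4.51 ± 0.07 in the wild type, log2, SD, n = 3 each).

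Rgr, a retinal G protein-coupled receptor of the pigment epithelium and of Müller glia that binds all-trans retinal, was detected on 4 of the 6 arrays. Its brightest probe, ILMN_2957721, read 90.8, 121.4 and 83.64 in the homozygotes, with detection p-values of 0.317, 0 and 0.242. The same probe read 171.2, 684.7 and 138.3 in the wild type, with a detection p-value of 0 each time. Wild type replicate 2 was far above the other 5 arrays, and homozygous replicate 2 was above the other homozygotes. The raw signals of the groups did not overlap, but the normalized values did by a small margin: 5.97 in homozygous replicate 2 and 5.95 in wild type replicate 3. The log2 fold change was -2.14 (SE 0.62, n = 3 per group, limma adjusted p = 0.281).

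Of the other Rgr probes, ILMN_2590082 ranked the raw signals of the arrays in the same order. ILMN_2590090 shared the top array and the lowest ones, homozygous replicates 1 and 3, but not the order between them. ILMN_2590082 read 92.9, 95.82 and 69.93 in the homozygotes and 125.6, 504.2 and 99.43 in the wild type, with a log2 fold change of -1.71 (SE 0.66, limma adjusted p = 0.451). ILMN_2590090 read 84.49, 94.69 and 79.89 in the homozygotes and 93.79, 211.2 and 96.61 in the wild type. It was above background on 2 arrays, 1 in each group, so it was not tested. Homozygous replicate 2 was above wild type replicate 1 at this probe, so its groups overlapped. Its homozygous mean minus the mean of wild type replicates 1 and 3 was -0.10 log2 units. The same difference was -0.66 for ILMN_2590082 and -1.24 for the brightest probe. All 3 Rgr probes were highest on wild type replicate 2. There they exceeded the mean of the other wild-type arrays by 2.08 to 3.15 log2 units.

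Rlbp1 encodes the cellular retinaldehyde-binding protein, which carries 11-cis retinoid in pigment epithelium and Müller glia. It read 69.96, 83.06 and 67.22 in the homozygotes and 81.32, 242.8 and 98 in the wild type. It was above background on 0 homozygous arrays and on wild type replicates 2 and 3, where its detection p-values were 0 and 0.0401. It was not tested, and homozygous replicate 2 was above wild type replicate 1. Against the detection limit the wild-type mean was 1.46-fold higher than the homozygous mean. This is not a strict bound, because wild type replicate 1 was itself not above background. The value was set by wild type replicate 2, which stood 2.51 log2 units above the mean of the other wild types. The homozygous mean minus the mean of wild type replicates 1 and 3 was -0.26.

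Rpe65, the isomerohydrolase of the pigment epithelium, was close to the detection limit. Its signals were 92.8, 85.28 and 90.11 in the homozygotes and 98.36, 116.3 and 87.46 in the wild type, and the groups overlapped. It was above background on wild type replicates 1 and 2 (detection p-values 0.0313 and 0.00125) and on 0 homozygous arrays, where homozygous replicate 3 narrowly missed the limit at 0.0501. Normalized log2 signal was 4.66 ± 0.16 in the homozygotes and 4.85 ± 0.40 in the wild type (SD, n = 3 each), and the probe was not tested.

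Across the whole comparison 35 of 8618 tested probes passed at an adjusted p under 0.05, which is 0.406%, and 23 of them (0.267%) were lower in the homozygotes. Of the 7 genes, 4 had a probe above background on at least 3 arrays and were tested, and 0 passed in limma. At an unadjusted p under 0.05 stood 3 of the 4 (Dct, Tyrp1 and Rgr), against 9.14% of the tested genes. For Dct, Tyrp1 and Mlana the 3 normalized homozygous values lay below the 3 wild-type values, as they did for 7.47% of tested probes. All 4 genes met the 3-array filter through their 3 wild-type arrays: Tyrp1 and Mlana were above background on 0 homozygous arrays, and Dct and both tested Rgr probes on 1. A lower homozygous value was therefore favoured by the filter, and these counts are given as a description only.

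Wild type replicate 2 moved the sizes of Rgr most, those of Dct and Tyrp1 less, and that of Mlana little. When that array was left out and the same probes kept, the log2 fold change of Dct was -0.94 (SE 0.28), of Tyrp1 -0.56 (SE 0.18) and of Mlana -0.24 (SE 0.18, against -0.27 with all arrays), at limma adjusted p-values of 0.282, 0.373 and 0.869. The Rgr probes then stood at -1.19 (SE 0.34) and -0.63 (SE 0.26), against -2.14 and -1.71 with all arrays. Leaving out wild type replicate 3, whose sex genes go against its label, gave -1.25 for Dct, -0.90 for Tyrp1, -0.22 for Mlana and -2.72 and -2.43 for Rgr. In both settings 0 members passed. With no background correction the fold changes were smaller, at -0.55 for Dct, -0.34 for Tyrp1 and -1.18 for the brightest Rgr probe. Whether the dependence on wild type replicate 2 differs between melanin and retinoid genes was not tested.

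**Figure D3:**
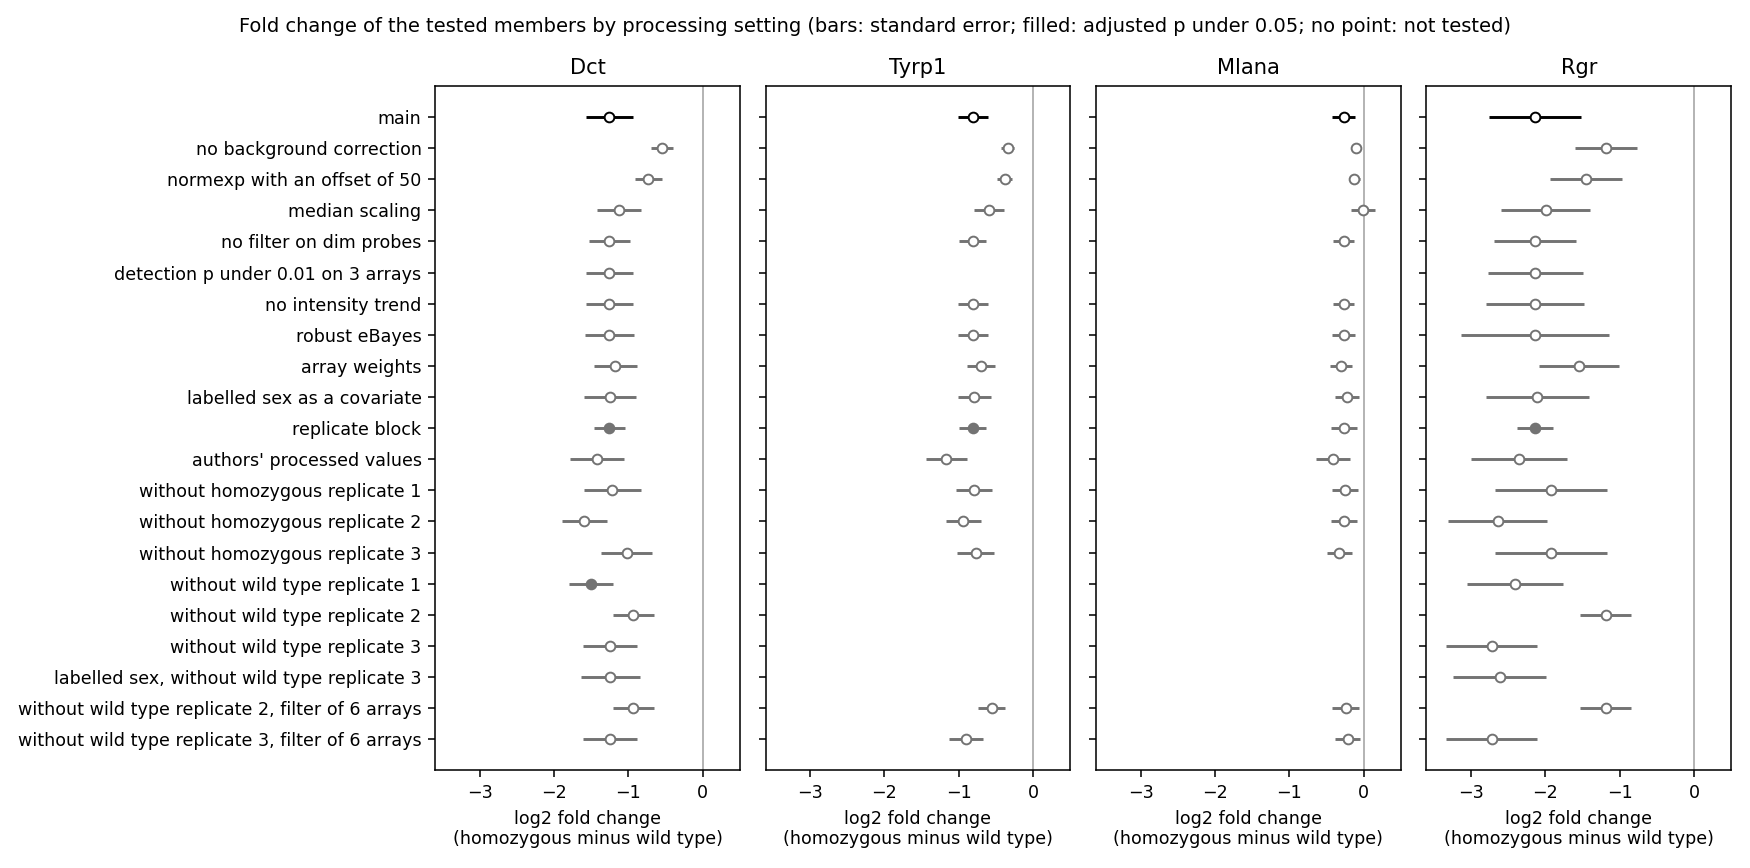
Log2 fold change (homozygous minus wild type, x axis) with standard error for Dct, the detected Tyrp1 probe, Mlana and the brightest Rgr probe under each processing setting, the first row being the one reported. Points lie below 0 throughout, and those of Rgr and Dct move toward 0 without wild type replicate 2.

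Marker genes of neighbouring tissues were followed on the same arrays. Of 18 photoreceptor genes on the array 16 were tested, with the cone opsin Opn1sw above background on 0 arrays. Their summed normalized signal was 2581, 5182 and 4114 in the homozygotes and 2729, 14690 and 3607 in the wild type, carried mostly by Gnat1. Their mean deviation, in which each gene weighs alike, was -0.72, 0.14 and -0.22 in the homozygotes and -0.54, 1.5 and -0.17 in the wild type. By both measures wild type replicate 2 was highest here too, and homozygous replicate 2 was highest of its group. The median log2 fold change of these 16 genes was -0.52, and 0.13 without wild type replicate 2, against a median of 0.00 over all tested genes. Their part in the values of Rgr, Rlbp1 and Dct was not tested.

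Müller glia, which also contain Rlbp1 and Rgr, were represented by 7 tested genes of 12 on the array. Glul, their glutamine synthetase, and Sox9 were above background on 0 arrays. The glutamate transporter Slc1a3 fell 3.94-fold in the homozygotes (limma adjusted p = 0.00244). On the log2 fold scale Apoe stood at -1.96, the water channel Aqp4 at -0.55 and Dkk3 at -0.10 (limma adjusted p = 0.0739, 0.41 and 0.86). Vim (0.24), Car2 (0.20) and Clu (0.17) lay above 0. Slc1a3 and Apoe were above background on 1 homozygous and 3 wild-type arrays, so the filter favoured a lower homozygous value. Of the 7, 4 had a log2 fold change below 0, and the median was -0.10. The list's summed signal was 11460 to 12720 in the homozygotes and 10600 to 11930 in the wild type, carried by Clu, Dkk3 and Vim, which the lens also expresses. Of 8 tested inner retina genes Calb2, Slc6a9, Sncg and Slc17a6 fell at a limma adjusted p under 0.05, as did 0.267% of all tested probes. A log2 fold change below 0 was found for 7 of the 8, and Rbpms stood at 0.30. When each array was left out in turn 2 to 5 genes fell, the lowest count without homozygous replicate 2 or 3. In those fits 0.151% to 1.28% of all tested probes passed in either direction. Slc17a6 was above background on 0 homozygous arrays, Calb2 and Sncg on 1 and Slc6a9 on 2, and each on all 3 wild-type arrays. A lower homozygous value was therefore favoured by the filter for these genes too. The list's summed signal was 228.9 to 259.7 in the homozygotes and 489.2 to 757.8 in the wild type. The ganglion cell factor Pou4f1 and Calb1, Nefl and Prkca were above background on 0 arrays. The part of glia and neurons in the values of the pigment genes was not tested.

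Of the list for the ciliary epithelium and iris stroma, which lie beside the pigmented layers of the anterior eye, 5 of 9 genes on the array were tested and 0 passed in limma, with 3 at an unadjusted p under 0.05. Wfdc1 was at least 2.02-fold lower and Cldn2 at least 1.59-fold lower in the homozygotes (limma adjusted p = 0.193 and 0.36), while Msx1 had a log2 fold change of 0.32. Wfdc1 and Cldn2 were above background on 0 homozygous arrays and so were tested through the wild type alone. Without wild type replicate 2, 2 of the 5 passed, in a fit where 0.638% of all tested probes did. The list's summed signal was 581.7 to 670.3 in the homozygotes and 598.2 to 740.3 in the wild type. Of 8 smooth muscle genes on the array, Acta2 and Des were tested, with log2 fold changes of 0.22 and 0.07, and Myh11, Cnn1 and Tagln were above background on 0 arrays. Of 5 tested leukocyte genes 4 had a log2 fold change below 0, and the lysosomal gene Laptm5 fell at least 1.81-fold (limma adjusted p = 0.0113). Laptm5, C1qb and Fcer1g were above background on 0 homozygous arrays and so were tested through the wild type alone. The macrophage gene Aif1, above background on all 6 arrays, had a log2 fold change of 0.16. All 3 of its normalized homozygous values lay above all 3 wild-type values, but its deposited signals ran the other way. They were 106.8, 104.1 and 100 in the homozygotes and 107, 113.2 and 112.3 in the wild type. The summed signal of the 5 genes was 134.6 to 160.5 in the homozygotes and 195.4 to 285.2 in the wild type. When 1 homozygous array or wild type replicate 3 was left out, 0 leukocyte genes passed. In the fit without wild type replicate 2, 2 passed, with 0.638% of all tested probes. Ptprc and Tyrobp were above background on 0 arrays. Of 5 erythroid genes on the array only Hba-a1 was tested, which read 180.3, 96.98 and 79.94 in the homozygotes and 202.4, 484.1 and 402.2 in the wild type. Hbb-b2, Hbb-bt and Alas2 were above background on 0 arrays, and Slc4a1 on 1 array of each group.

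**Figure D4:**
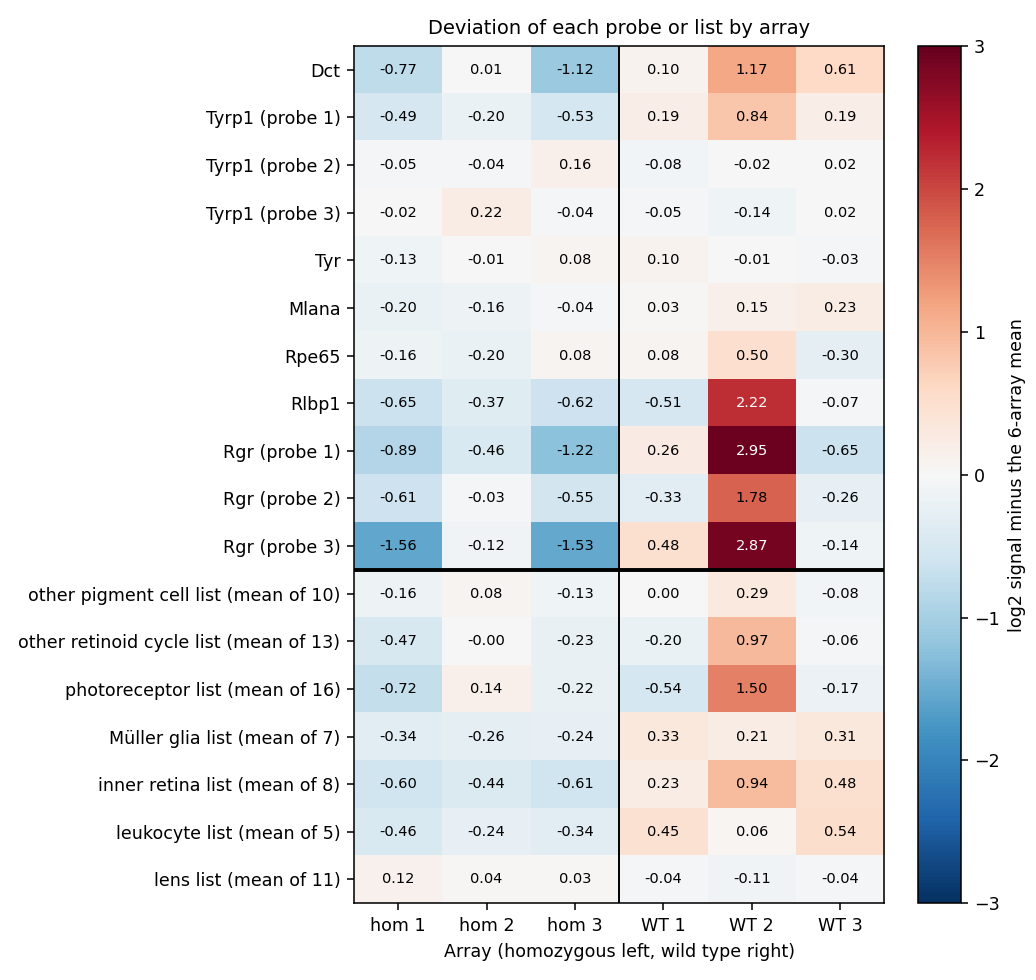
Log2 signal minus the 6-array mean for each of the 11 probes, and the mean of that deviation over the tested genes of 7 marker lists, by array (homozygous left, wild type right). Rgr (up to 2.95), Rlbp1 (2.22), Dct (1.17), the detected Tyrp1 probe (0.84), Rpe65 (0.50) and the photoreceptor list are highest on wild type replicate 2. The inner retina, Müller glia, leukocyte and other retinoid cycle lists are below 0 on each homozygous array, the last of them barely on homozygous replicate 2 (-0.003).

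The other pigment cell genes did not pass. Of 25 listed, 22 were on the array, 13 were above background on at least 1 array and 10 were tested. In limma 0 passed, 0 had an unadjusted p under 0.05, and 6 had a log2 fold change below 0. The median was -0.23, and 0.03 without wild type replicate 2. The genes of smallest p were Rab38, a melanosome transport GTPase (log2 fold change -0.31), Gpnmb, a melanosomal glycoprotein also made by macrophages (-0.53), Pmel, the fibril protein of the melanosome (-0.34), and the transporter Slc45a2 (0.25), at limma adjusted p-values of 0.631 to 0.674. Pmel read 100.3, 104.9 and 89.82 in the homozygotes and 114.6, 134.8 and 107.6 in the wild type, in the same direction as Dct, whereas Slc45a2 read 103.8, 100.2 and 90.79 in the homozygotes and 98.64, 103.9 and 97.59 in the wild type. Mitf was above background on wild type replicate 3 alone, and Mc1r, Pax3, Slc24a5 and Gpr143 on 0 arrays.

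Of the other retinoid cycle and pigment epithelium genes, Ttr and Rdh5 stood farthest from 0. Of 25 listed, 23 were on the array, 16 were above background somewhere and 13 were tested. In limma 0 passed and 2 had an unadjusted p under 0.05, and 10 of the 13 had a log2 fold change below 0. The median was -0.32, and -0.12 without wild type replicate 2. Ttr, the thyroxine and retinol carrier transthyretin made by the pigment epithelium, read 117.2, 185 and 121.1 in the homozygotes and 249, 1292 and 246 in the wild type (log2 fold change -1.91, SE 0.59, limma adjusted p = 0.316), with no overlap. Rdh5, the 11-cis retinol dehydrogenase of that tissue, read 94.62, 96.42 and 74.62 in the homozygotes and 101.7, 314.7 and 114.6 in the wild type (log2 fold change -1.29, limma adjusted p = 0.472). In order of unadjusted p-value Otx2 and Bmp4 came next, with -0.89 and -0.48, while Abca4 and Rdh12 stood at -0.60 and -0.58. Lrat, the acyltransferase that supplies RPE65 with its substrate, was above background on 0 arrays, as were Cldn19 and Rdh10. Rdh5 and Ttr, like Dct, Tyrp1, Mlana and Rgr, were above it on all 3 wild-type arrays, and Rpe65 on 2.

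**Figure D5:**
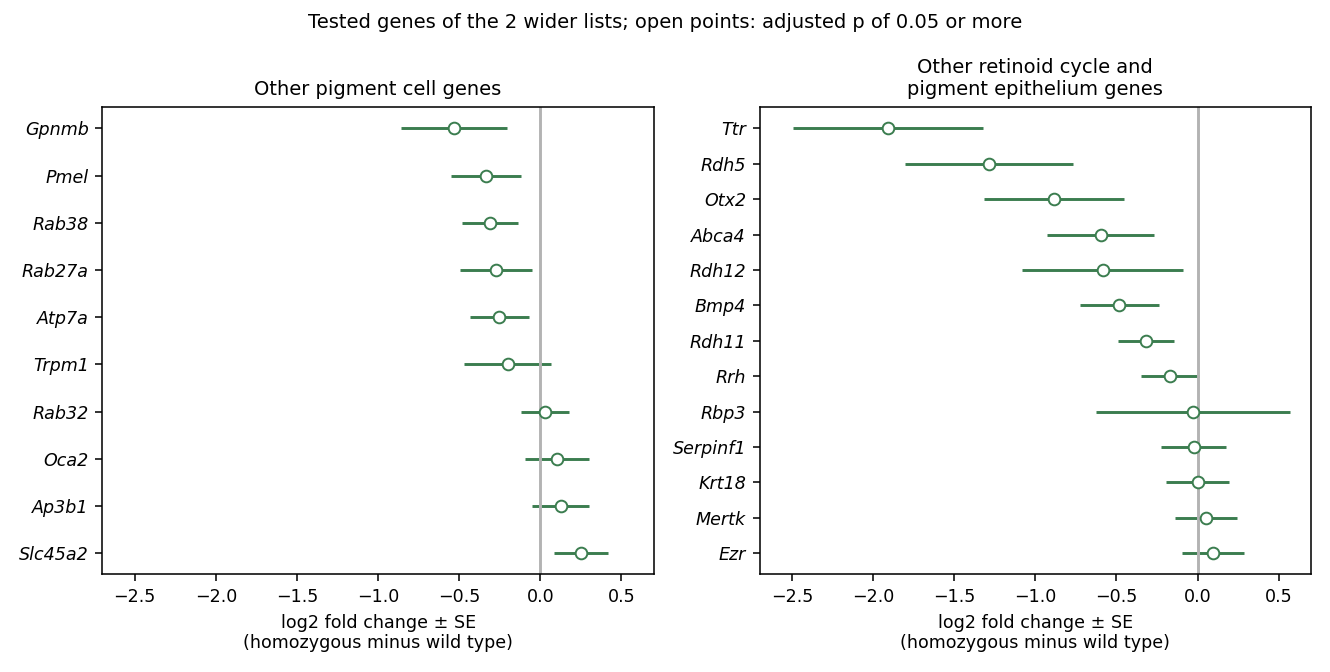
Log2 fold change (homozygous minus wild type, x axis) with standard error for the 10 tested genes of the pigment cell list and the 13 of the retinoid cycle and pigment epithelium list. Ttr at -1.91 and Rdh5 at -1.29 lie farthest from 0, and 0 genes passed.

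The genes nearest to these patterns were found by the mean absolute difference of deviations over the 6 arrays, among 6426 tested genes. The melanin profile, the mean of Dct, Tyrp1 and Mlana, was -0.49, -0.12 and -0.56 in the homozygotes and 0.11, 0.72 and 0.34 in the wild type. Pdlim3 (0.06 log2 units away), Clstn1, Bin1, AU040320 and Syn1 (0.09) came closest, against a median distance of 0.42 over all genes. The retinoid profile rests on Rgr alone, at -1.56, -0.12 and -1.53 in the homozygotes and 0.48, 2.87 and -0.14 in the wild type. Ttr was nearest at 0.19, followed by the iron carrier gene Trf (0.50), the photoreceptor gene Guca1a (0.52), Rdh5 (0.53) and the cone phosphodiesterase subunit Pde6h (0.54), against a median distance of 1.14.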

How the data were processed

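The members and gene lists were chosen with earlier results of these data known. The authors' deposited signal is a linear intensity per probe, neither background-subtracted nor normalized, with a detection p-value beside it, per the file headers. A second deposited table holds the authors' processed intensity by a method not given in the sources used here. The submitters' processing notes name GenomeStudio 2011.1.

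In R 4.3.3, limma 3.58.1 applied normexp background correction, inferring the negative controls from detection p-values, an offset of 16, quantile normalization and log2. A probe was tested if its detection p-value lay below 0.05 on 3 or more of the 6 arrays (8618 probes, 6430 named genes). The brightest probe represents a gene. Homozygous and wild-type lenses were compared by lmFit and eBayes with an intensity trend, two-sided, with Benjamini-Hochberg adjustment over all tested probes. The offset draws fold changes of dim probes toward 0, and quantile normalization hides a shift common to most transcripts. For a probe that no array of a group detected, the fold is a bound: the brighter group's mean against, per array, the higher of the probe's value and the lowest detected value. It is not strict for Rlbp1, which wild type replicate 1 did not detect either. Of 23978 annotated probes, 23962 matched RefSeq gene identifiers, with 0 symbols changed. The fit was tested on simulated data. Alternatives were other background, scaling, filter and variance settings, labelled sex, the replicate number as a block, the authors' processed values and leaving out each array. Named genes were all members, list genes that passed, up to 4 genes of smallest p in the pigment and retinoid lists, and 5 nearest genes per profile. Other list genes were named after their values were seen. Precision is limited by the number of arrays.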

Additional observations from a re-analysis of the deposited data

How the results depend on the processing

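The number of members that passed was 0 in the reported fit. It was 3 with the replicate block (Dct, Tyrp1 and Rgr, adjusted p = 0.00208, 0.0231 and 2.63e-05 for the brightest Rgr probe), and 0 to 1 when each array was left out in turn, where Dct passed without wild type replicate 1 (log2 fold change -1.50, adjusted p = 0.0332). Deviations of same-numbered arrays correlated at 0.20, 0.19 and -0.03, and those of differently numbered arrays at -0.21 to 0.04. Replicates 1 and 2 thus had the highest values with their own number, and replicate 3 did not. The labels state no block, and the numbers were not taken to pair the mice. The block raised the probes that passed to 125, against 35 in the reported fit. That count was 69 with array weights, 23 with an offset of 50, 22 with no background correction, 20 with no intensity trend, 22 with labelled sex as a covariate, 6 with sex as a covariate and wild type replicate 3 left out, and, with the probes kept, 55 without wild type replicate 2 and 18 when replicate 3 of the same group was dropped. It was 12 to 98 when each array was left out. The sex fit without replicate 3 and the fits with the probes kept were chosen after seeing the data.

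The log2 fold change was below 0 in each alternative that tested the probe: -1.59 to -0.55 for Dct in 20, -1.17 to -0.34 for Tyrp1 in 15, -0.41 to -0.01 for Mlana in 15 and -2.72 to -1.18 for the brightest Rgr probe in 20. Tyrp1 and Mlana were not tested when a wild-type array was left out and the filter taken anew, or with a detection p-value under 0.01 on 3 arrays. With no filter on dim probes all 7 genes were tested and 0 passed, with -1.09 for Rlbp1, -0.19 for Rpe65 and -0.04 for Tyr (adjusted p = 0.733, 0.885 and 0.969). A slide block was not run because the file headers give no slides.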
